A study of Homo sapiens with 6 samples.

Results

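Imprinted genes are expressed mainly from the copy inherited from 1 parent, and several are active in pancreatic islets. Open chromatin was examined at 10 of them, namely DLK1, GNAS, PLAGL1, PEG3, ZIM2, PEG10, SGCE, SNRPN, NNAT and MEST, in EndoC-βH3 cells, an established human beta cell line derived from fetal pancreas. Accessible regions were assigned to these genes by position alone. Regions that reached to within 2 kb of any transcript start of the gene annotated as protein-coding in GENCODE 44 were taken as promoter regions, and a distal region was any other region whose middle had its nearest coding start site in the gene, within 100 kb. By this rule 55 of 108542 regions belonged to the 10 genes, 19 as promoter regions of 20094 in all and 36 as distal regions of 88448. The genes are taken as imprinted from general knowledge, since neither imprinting nor RNA was measured in these data.

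The regions come from ATAC-seq, in which a transposase inserts adapters where DNA is open, in 6 libraries of 100000 cells each. Of these, 3 came from the non-senescent group, labelled as control, and 3 from the senescent group, treated with 4-hydroxy tamoxifen for 3 weeks. The drug activates the CreER recombinase of the cells, which excises the SV40 Large-T antigen and hTERT transgenes. Every library is of genotype WT in the labels, and all libraries come from this 1 cell line, which carries immortalising transgenes until they are excised. The labels number the libraries within a group but do not say whether they came from separate cultures.

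All values below are the authors' mean signal, the average over the 6 libraries of read counts normalised by DESeq2, for which the table used here has no column for a single library. The senescent and the non-senescent group are therefore pooled in every value, no spread between libraries can be given, and no difference between the groups was computed. Since wide regions collect more reads, levels were compared as mean signal per kb of region. The median over all promoter regions was 507 per kb, and the median over all distal regions was 168 per kb. Differences between regions are descriptions and were not tested.

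Imprinting rests on differentially methylated regions, stretches rich in CpG that carry DNA methylation on 1 parental copy only. The methylated copy is usually closed and bound by ZFP57, a zinc finger protein that recognises the hexamer TGCCGC when methylated, while the other copy is open and serves as a promoter, often of a noncoding RNA that silences neighbouring genes. Loss of this asymmetry at PLAGL1 underlies transient neonatal diabetes, and the DLK1-MEG3 cluster is linked to diabetes risk. Reads here are summed over both copies, so that 1 open copy and 2 partly open copies cannot be told apart.

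The sequences that bear on the promoters are shown first, each read from hg38 on the plus strand. The first set comes from promoter regions that held the most ZFP57 hexamers among the 10 genes, and capitals mark that hexamer on either strand, which is GCGGCA when read on the opposite strand. The PLAGL1 window, at chr6:144008404-144008703, lies in the region over the P1 start sites. It was placed to hold few bases of untranslated exons, 27 of 300, so that it holds only 1 of the 6 hexamers of the region. The MEST window, at chr7:130491797-130492096, holds 2 of 6 hexamers, which overlap each other. The GNAS window, at chr20:58851632-58851931, lies just upstream of the start sites of the XL form and holds 3 of 4 hexamers. A start site of the antisense noncoding gene GNAS-AS1 also lies within 2 kb of its region.

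PLAGL1, P1: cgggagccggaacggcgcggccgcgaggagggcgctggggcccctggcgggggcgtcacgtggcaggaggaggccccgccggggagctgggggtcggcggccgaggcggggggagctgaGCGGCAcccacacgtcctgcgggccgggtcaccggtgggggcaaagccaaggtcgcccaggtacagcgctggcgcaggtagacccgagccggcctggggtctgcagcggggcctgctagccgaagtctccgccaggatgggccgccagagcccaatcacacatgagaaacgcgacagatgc
MEST: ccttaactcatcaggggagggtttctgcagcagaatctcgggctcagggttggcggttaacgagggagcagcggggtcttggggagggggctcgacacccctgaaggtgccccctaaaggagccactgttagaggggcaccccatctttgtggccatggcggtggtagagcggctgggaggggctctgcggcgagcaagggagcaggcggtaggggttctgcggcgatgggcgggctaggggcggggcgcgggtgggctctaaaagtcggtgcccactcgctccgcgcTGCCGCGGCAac
GNAS, XL: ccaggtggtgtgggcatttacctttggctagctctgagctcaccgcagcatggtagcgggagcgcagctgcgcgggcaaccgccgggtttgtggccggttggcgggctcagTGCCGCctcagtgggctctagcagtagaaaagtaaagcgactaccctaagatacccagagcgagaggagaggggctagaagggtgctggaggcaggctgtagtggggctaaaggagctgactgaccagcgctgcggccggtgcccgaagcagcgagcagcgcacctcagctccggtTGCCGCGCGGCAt

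The next sequences are shown because they come from the intronic regions of highest signal at the SNRPN and PEG10 promoters. In the SNRPN window, at chr15:24956257-24956556, capitals mark 2 matches to a core of the motif of CTCF, a protein that shapes chromatin loops, on opposite strands. The core searched was AGGNGGCAG. In the PEG10 window, at chr7:94658073-94658372, capitals mark the 6 copies of a repeated stretch of 12 bases.

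SNRPN: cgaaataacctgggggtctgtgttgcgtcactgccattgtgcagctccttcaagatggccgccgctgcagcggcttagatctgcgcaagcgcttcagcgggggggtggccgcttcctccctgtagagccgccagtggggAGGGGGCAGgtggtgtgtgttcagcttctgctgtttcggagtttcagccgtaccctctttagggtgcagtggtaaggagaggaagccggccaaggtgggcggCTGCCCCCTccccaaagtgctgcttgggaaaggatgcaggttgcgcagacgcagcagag
PEG10: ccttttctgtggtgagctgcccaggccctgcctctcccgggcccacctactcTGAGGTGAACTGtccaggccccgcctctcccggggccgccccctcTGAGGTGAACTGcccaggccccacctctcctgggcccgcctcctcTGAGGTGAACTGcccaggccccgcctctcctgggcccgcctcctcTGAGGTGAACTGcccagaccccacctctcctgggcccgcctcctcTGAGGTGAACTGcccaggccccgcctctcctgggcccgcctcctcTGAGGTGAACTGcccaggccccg

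The last sequences are a stretch that the 2 distal regions of SNRPN share, and capitals mark the identical bases. They lie at chr15:24773132-24773259 and chr15:24878315-24878442.

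SNRPN, distal upstream: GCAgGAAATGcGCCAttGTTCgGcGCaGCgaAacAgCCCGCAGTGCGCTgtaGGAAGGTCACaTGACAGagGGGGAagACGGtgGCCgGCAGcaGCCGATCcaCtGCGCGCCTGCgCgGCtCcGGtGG
SNRPN, distal downstream: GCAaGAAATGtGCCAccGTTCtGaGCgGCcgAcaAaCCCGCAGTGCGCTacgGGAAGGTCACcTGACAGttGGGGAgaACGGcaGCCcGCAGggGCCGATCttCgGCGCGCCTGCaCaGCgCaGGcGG

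Of the 10 genes, 7 had at least 1 promoter region and 5 at least 1 distal region. The table used here listed neither kind for PEG3, ZIM2 and NNAT. For comparison, 21.2% of 19663 protein-coding genes had no promoter region and 10.1% had no region of either kind. The promoter regions had a median of 645 per kb, against 507 in all promoter regions, and 12 of 19 were above that median. The distal regions had a median of 236 per kb, against 168 in all distal regions, and 22 of 36 were above it. Levels within the genes were spread widely. Mean signal ranged from 11.3 at a distal region of PLAGL1 to 4412 at a promoter region of the same gene.

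**Figure D1:**
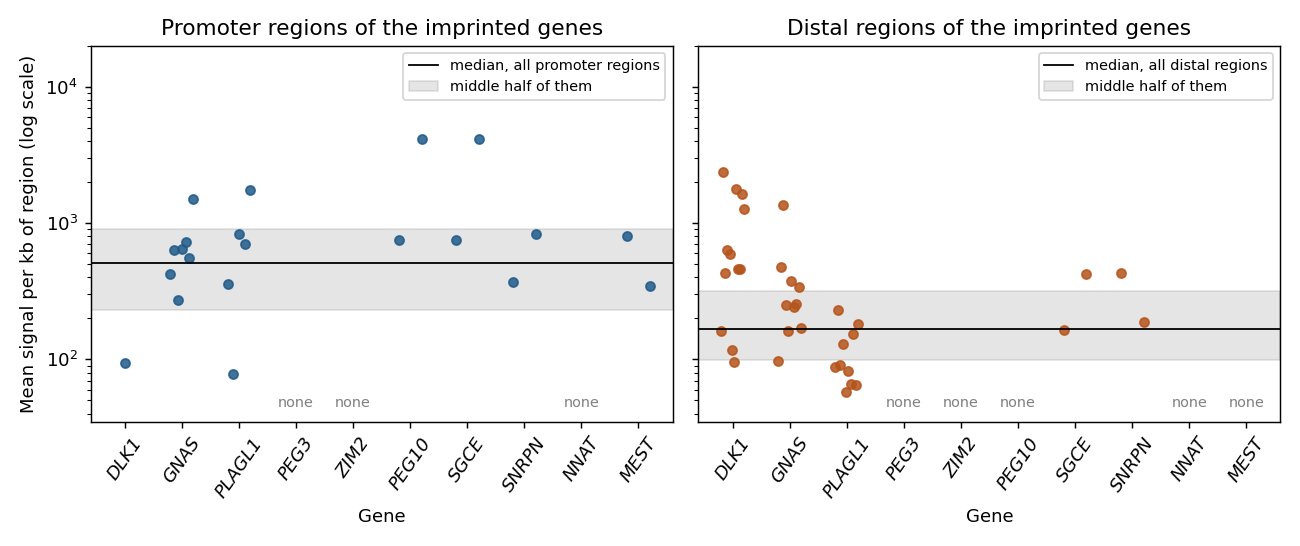
Mean signal per kb of each promoter region (left) and distal region (right) by gene, on a log scale, where each point is 1 region, the line is the median of all regions of that kind and the band spans their middle 50 percent. PEG10 and SGCE share their 2 promoter regions, PEG3, ZIM2 and NNAT have none, and the distal regions of DLK1 reach higher than those of PLAGL1.

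The promoter regions varied in what they covered. Of the 19 regions, 13 covered at least 1 coding start site of the gene, and the middle of 9 lay in an untranslated exon, of 7 in an intron and of 3 in a noncoding exon. The middles of the 36 distal regions lay in introns of coding genes (13), in introns of noncoding genes (7), in intergenic DNA (11), in coding exons (2), in noncoding exons (2) and in an untranslated exon (1). GNAS had 7 promoter regions and PLAGL1 had 5, while 7.21% of all coding genes had at least 3.

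DLK1 encodes a transmembrane ligand related to those of Notch and is paternally expressed from a cluster that also holds the maternally expressed noncoding RNA MEG3. Its only promoter region, chr14:100726914-100727203, was weak. The region was 290 bp wide, covered 1 of the 4 coding start sites, and had a mean signal of 27.2, or 93.9 per kb, above 7.14% of all promoter regions. Its sequence was rich in CpG, with a ratio of observed to expected CpG of 0.984, above 98.0% of promoter regions.

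The surroundings of DLK1 had higher levels than its promoter. The gene had 12 distal regions, 10 upstream and 2 downstream of the nearest start site, and all 12 exceeded the promoter region per kb. The highest, chr14:100672805-100673665, lay 52470 bp upstream in an intron of the noncoding gene LINC00523. Its mean signal was 2035, or 2364 per kb, which was 25.2 times the level of the promoter region and above 99.6% of distal regions. The region of highest mean signal, chr14:100708427-100709919, lay in intergenic DNA 16532 bp upstream, with 2644, or 1771 per kb. Downstream, chr14:100746883-100747634 reached 1626 per kb in intergenic DNA at 20229 bp, and chr14:100782599-100784317, in an intron of MEG3, reached 1280 per kb at 56428 bp.

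These 4 regions of DLK1 and 1 of GNAS were the only distal regions of the 10 genes above 1000 per kb, a level chosen after the values were seen, and 4.21% of all distal regions were above it. The other 8 distal regions of DLK1 lay between 96.0 and 636 per kb. Because only protein-coding start sites were used, regions that lie nearer to the start of a noncoding gene such as MEG3 still count for DLK1.

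**Figure D2:**
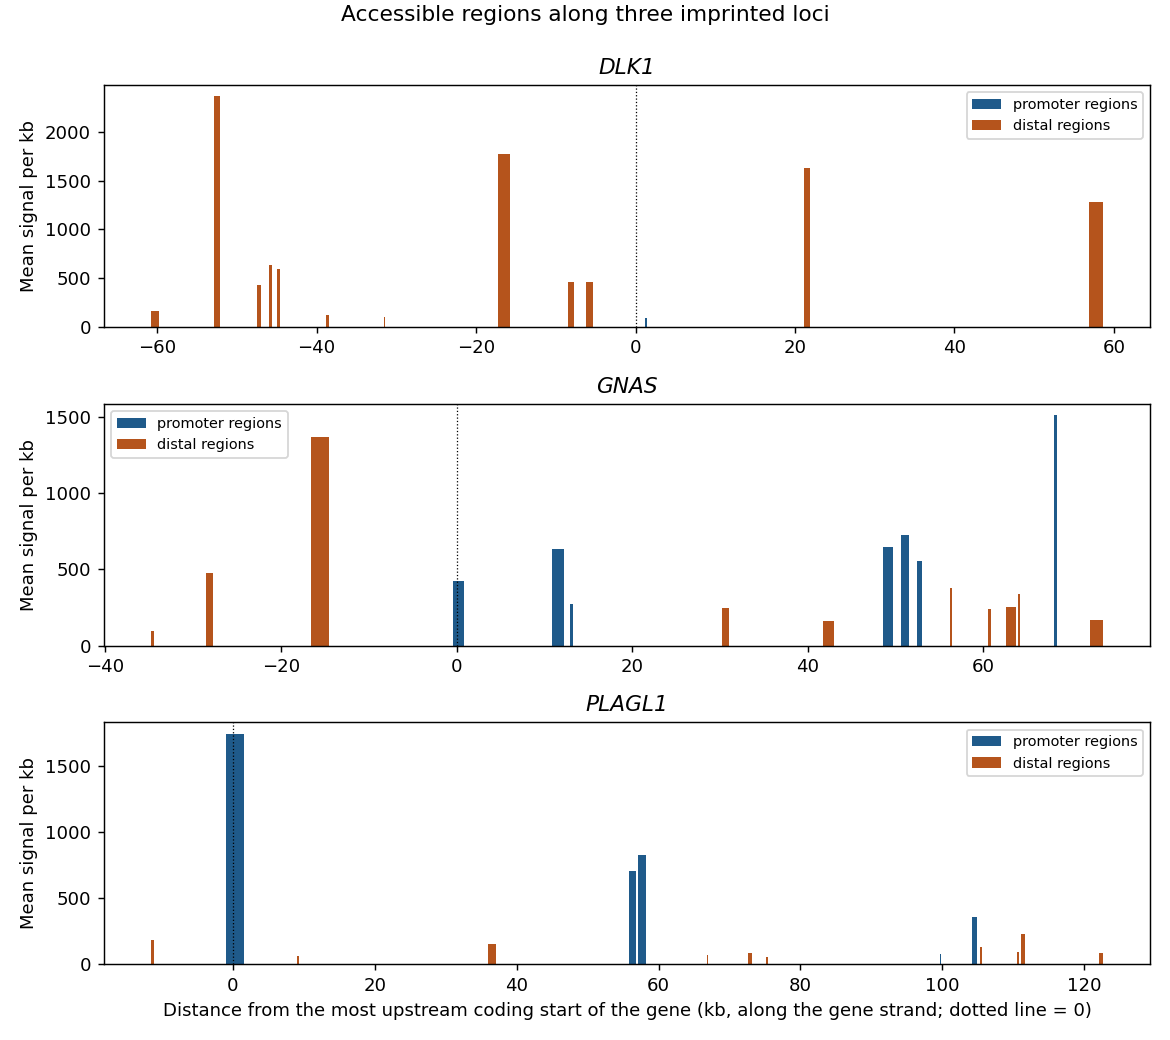
Mean signal per kb (height) of every region of DLK1, GNAS and PLAGL1 against its distance in kb from the most upstream coding start site, along the strand of the gene, with the width of each bar to scale. In DLK1 the tall bars are distal, in PLAGL1 they are promoter regions, and in GNAS both kinds are tall.

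GNAS encodes the stimulatory G protein alpha subunit, Gsα, which couples hormone receptors such as those for glucagon-like peptide to the production of cyclic AMP. The locus uses several promoters with different imprints, namely those of the maternally expressed NESP55, the paternally expressed XL form and A/B transcript, and Gsα itself, which is expressed from both copies in most tissues. Regions lay at or beside each of them. The most upstream region, chr20:58839358-58840592, lay at the NESP55 start sites, with a mean signal of 522, or 423 per kb. It covered 4 of the 10 coding start sites within 2 kb. The region upstream of the XL start sites, chr20:58850577-58851954, had the highest mean signal of the 7, with 873, or 633 per kb. It covered no coding start site, and the nearest lay 760 bp away. A smaller region at the XL start sites, chr20:58852595-58852939, covered 2 of the 5 coding start sites within 2 kb and had 271 per kb. A start site of the antisense noncoding gene GNAS-AS1 also lay within 2 kb of each of these upstream regions.

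The remaining promoter regions of GNAS lay further downstream. The region chr20:58888308-58889474 covered 14 start sites, those of A/B transcripts among them, with 753, or 645 per kb. The next regions, chr20:58890350-58891196 and chr20:58892159-58892765, had 724 and 552 per kb and flank most start sites of Gsα, which fell between them. Over the whole locus 22 of 43 coding start sites lay inside a region. The highest level per kb, 1509, was that of chr20:58907773-58908091, over the last coding start site, a narrow region of 319 bp in which observed over expected CpG was 0.279. It exceeded 91.3% of promoter regions per kb. The 4 regions from the XL to the Gsα start sites had CpG ratios between 0.758 and 0.929, and the region upstream of XL had 0.539.

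GNAS had 10 distal regions, of which 8 were above the median of all distal regions. The strongest, chr20:58823201-58825237, lay 15499 bp upstream of the NESP55 start sites in an intron of the antisense noncoding gene GNAS-AS1. It had a mean signal of 2790, or 1370 per kb, above 98.0% of distal regions, and exceeded 6 of the 7 promoter regions of the gene per kb. The other distal regions of GNAS ranged from 96.8 to 474 per kb.

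PLAGL1 encodes a zinc finger transcription factor that restrains proliferation, and its overexpression causes transient neonatal diabetes. Its imprinted promoter, P1, shares a CpG island with the noncoding RNA HYMAI, and the upstream promoter P2 is expressed from both copies. The widest of all 55 regions, which also had the highest mean signal, lay at P2. This region, chr6:144063015-144065548, was 2534 bp wide, covered 3 start sites and had a mean signal of 4412, or 1741 per kb, above 94.2% of promoter regions. It was the only promoter region of the 10 genes wider than 2 kb, which 3.68% of all promoter regions were.

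At P1, 54211 bp downstream, 2 regions lay 328 bp apart. The region chr6:144007834-144008803, over 9 start sites, had a mean signal of 680, or 701 per kb. Its neighbour chr6:144006326-144007505, whose middle lay in an exon of HYMAI, had 976, or 827 per kb. The P2 region was thus 2.48 and 2.11 times as high per kb. The other promoter regions of PLAGL1, near start sites further downstream, had 360 per kb at chr6:143959742-143960396 and 78.4 per kb at chr6:143964776-143964970, the lowest value of the 19.

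In contrast to DLK1 and GNAS, most distal regions of PLAGL1 lay under the median. Only 2 of 10 were above the median of all distal regions, the highest level was 230 per kb at chr6:143952992-143953476, and 8 of 10 had a mean signal under 100, as did 57.8% of all distal regions. The distal region of highest mean signal, chr6:144027569-144028667, had 168, or 153 per kb, in an intron of PLAGL1. The region chr6:143958985-143959250 lay just outside the promoter window, 2162 bp from a PLAGL1 start site, with 129 per kb.

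PEG10 encodes a protein derived from a retrotransposon, and SGCE encodes epsilon-sarcoglycan, a membrane protein. Both are paternally expressed and start head to head, so that they shared both of their promoter regions. The region over the start sites, chr7:94655932-94656391, covered 35 of them and had a mean signal of 344, or 748 per kb. The second region, chr7:94657818-94658631, covered no start site, as it lay in an intron of PEG10, 1272 bp from the nearest start site of PEG10 and farther from a start site than any other of the 19 promoter regions. It had a mean signal of 3364, or 4133 per kb, which was 5.52 times the level of the start region and above 99.9% of all promoter regions.

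The sequence of this intronic region is repetitive. A stretch of 12 bases recurred 6 times at a constant spacing of 45 bp in the window printed above. Shifted by 90 bp, 60.4% of the bases of the region matched themselves, the best of shifts from 10 to 100 bp, against a median of 32.1% for the best shift of all promoter regions. This was above 99.8% of them. The repeat was searched for after the signal had been seen, and its part in the signal was not tested. SGCE had 2 distal regions, with 424 per kb at chr7:94632267-94633566 in an intron of SGCE and 165 per kb at chr7:94620773-94621203, and PEG10 had none.

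SNRPN encodes a protein of the spliceosomal small nuclear ribonucleoproteins, and its paternally expressed promoter, shared with SNURF, is part of the imprinting centre of Prader-Willi syndrome. The region over the start sites, chr15:24954848-24955543, covered 5 coding start sites and had a mean signal of 256, or 367 per kb. A second region in the intron 368 bp further on, chr15:24955912-24956901, was 2.27 times as high, with a mean signal of 823, or 832 per kb. It held the 2 CTCF cores printed above. Both regions lay in the window of SNURF as well.

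The 2 distal regions of SNRPN had unusual sequences. The region chr15:24772719-24773576 lay 50499 bp upstream of the nearest start site, in an intron of the noncoding gene PWRN1, with 430 per kb. The region chr15:24878000-24878620 lay within an intron of SNRPN, with 188 per kb. Their ratios of observed to expected CpG were 1.10 and 1.03, above 99.7% and 99.6% of distal regions, which had a median of 0.218. In the stretch printed above, 95 of 128 bases were identical (74.2%). The likeness was searched for after the CpG ratios had been seen.

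MEST encodes a protein of the alpha/beta hydrolase fold and is paternally expressed from its main promoter, while an upstream promoter is active from both copies in several tissues. The upstream region, chr7:130485929-130487129, covered 6 coding start sites and had a mean signal of 972, or 810 per kb. The downstream region, chr7:130490967-130492524, also covered 6, lay near the start of the antisense RNA MESTIT1 and had 541, or 347 per kb. The upstream region was 2.33 times as high per kb. MEST had no distal region.

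PEG3 and ZIM2 encode zinc finger proteins and share their promoter. The table used here listed no region near it. The nearest region to a coding start site was chr19:56594921-56595765, a promoter region of ZNF71, 228883 bp away from PEG3 and 228549 bp away from ZIM2. NNAT, which encodes a small protein of the endoplasmic reticulum membrane with a role in insulin secretion, lies in an intron of BLCAP. The nearest region to its start sites, chr20:37524460-37524644, was 3209 bp away, with a mean signal of 133, or 721 per kb, and counted as a promoter region of BLCAP. Absence from a list of regions does not show that these promoters are closed.

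To set the genes beside others, each gene was given the level per kb of its promoter region of highest mean signal. The median over the 15493 coding genes with a promoter region was 686 per kb, and 5 of the 7 imprinted genes with a promoter region were above it. PEG10 and SGCE, with their shared intronic region, had 4133 per kb, above 99.8% of genes. That repetitive region covers no start site and counts for both genes, while the region over their start sites had 748 per kb. PLAGL1 had 1741 per kb, above 91.2%. SNRPN, MEST and GNAS lay near the middle, with 832, 810 and 633 per kb, above 60.0%, 58.7% and 46.2% of genes. DLK1 was above only 4.60% of genes. The place of GNAS depended on this choice of 1 region per gene. When mean signal was summed over all promoter regions of a gene, GNAS, with 7 of them, was above 97.6% of genes. By that sum MEST was above 73.5%, SNRPN above 57.1% and DLK1 above 1.70%. Regions of 1 gene that lie beside each other are not separate measurements of that gene.

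Of 32 other imprinted genes, 27 had a promoter region, and CPA4, RTL1, DIO3, MKRN3 and ATP10A had none. Their median level was 561 per kb, against 832 in the 7 genes described here, and 11 of 27 were above the median gene. The highest were ZNF331 with 2322 per kb, L3MBTL1 with 1832 per kb and IGF2 with 1427 per kb. The IGF2 region is also a promoter region of INS, the insulin gene. The lowest were DIRAS3 with 80.9 per kb, KLF14 with 104 per kb and CALCR with 145 per kb, so that DLK1, with 93.9 per kb, fell between DIRAS3 and KLF14.

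Markers of cell types were read in the same way. All 12 beta cell markers had a promoter region, with a median of 1466 per kb, and 9 were above the median gene. A promoter region was also present for all 4 alpha cell markers (median 327 per kb) and all 3 delta cell markers (548 per kb). It was present for 2 of 4 acinar markers, CPA1 with 1298 and CELA3A with 118 per kb (median 708 per kb). The same held for 2 of 3 duct markers, KRT19 with 737 and SOX9 with 150 per kb (median 443 per kb). Of immune, endothelial and fibroblast markers, 1 of 3 each had a promoter region, namely CD68 (921 per kb), PECAM1 (144 per kb) and COL1A1 (119 per kb). The table used here listed no promoter region for PRSS1 and PNLIP of acinar cells, CFTR of duct cells or the immune markers PTPRC and CD3E. Nor did it list any for CDH5 and VWF of endothelium, or COL3A1 and PDGFRB of fibroblasts. A promoter region is no measure of expression.

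Sequence features that played no part in the assignment were then compared. The promoter regions of the imprinted genes had a median ratio of observed to expected CpG of 0.743, against 0.716 in all promoter regions, and 11 of 19 were above that median. Among the lowest were the regions of PLAGL1 at downstream start sites, with 0.112 and 0.188, and the last GNAS region. The distal regions were richer in G and C than most, with a median of 52.0% against 44.8% in all distal regions, and 31 of 36 were above that median.

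**Figure D3:**
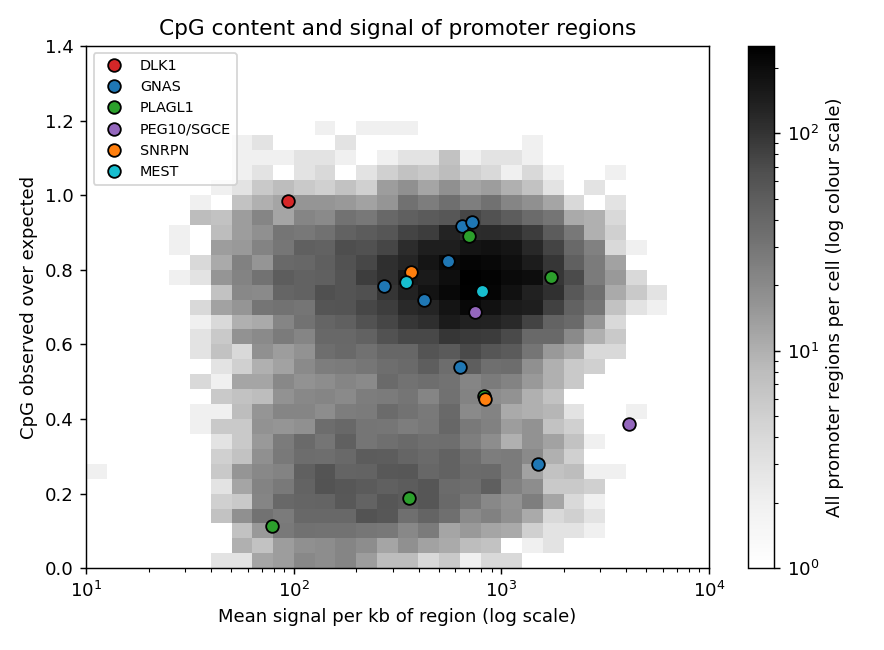
Ratio of observed to expected CpG of each promoter region against its mean signal per kb on a log scale, with points for the imprinted genes and grey cells for the number of all 20094 promoter regions. The DLK1 region combines a high CpG ratio (0.984) with a low level (93.9 per kb), and the intronic PEG10 region a low ratio (0.387) with the highest level (4133 per kb).

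The ZFP57 hexamer TGCCGC was sought on both strands. In 300 bp around the middle, 3 of 19 promoter regions held it (15.8%), against 24.6% of all promoter regions. These were the P1 and the P2 region of PLAGL1, with 2 hexamers each, and the GNAS region chr20:58892159-58892765, with 1. Over the whole region, 10 of 19 held it (52.6%), against 49.7%. Over the whole region, 2 of the 19 had a hexamer density above that of 95% of all promoter regions. The P1 region of PLAGL1 held 6 hexamers, or 6.19 per kb, a density above 99.6% of promoter regions, and the downstream MEST region also held 6, or 3.85 per kb, above 97.7%. The region upstream of the XL start sites of GNAS held 4 (2.90 per kb) and the SNRPN start region held 2 (2.87 per kb), all of them outside the 300 bp around the middle, as were those of MEST. The NESP55 region of GNAS held 1 (0.810 per kb), and the region over the A/B start sites of GNAS held none, nor did the DLK1 and PEG10 regions. The P2 region of PLAGL1 held 2 in its 2534 bp (0.789 per kb), both in the 300 bp around the middle. The upstream MEST region had 1.67 per kb, the GNAS region chr20:58892159-58892765 1.65, the intronic SNRPN region 1.01 and the HYMAI neighbour of P1 0.847. The P1 region was 73.6% G and C, above 96.1% of promoter regions, and the part of this in its hexamer density was not tested.

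Other motifs were sought on both strands in the same 300 bp. In the promoter regions, the SP1 motif GGGCGG was present in 14 of 19 (73.7%), against 55.5% of all, the CTCF core in 1 of 19 (5.26%) against 5.98%, the YY1 motif GCCATNTT in 1 of 19 against 5.78%, and the NRF1 motif GCGCATGC in none against 2.21%. In the distal regions, the AP-1 motif TGANTCA was present in 4 of 36 (11.1%), as in 11.1% of all, and the CTCF core in 2 of 36 (5.56%) against 4.62%. Motifs of factors that act in islets were each held by at most 2 distal regions. The shares were not adjusted for the higher G and C content of these regions given above. The FOXA motif TGTTTAC and the homeodomain motif TAATTA were each present in 1 of 36 (2.78%), against 9.43% and 10.1% of all distal regions, the E-box CAGATGG in 2 of 36 (5.56%) against 13.6%, and the RFX motif GTTGCNATG in none against 1.73%. A match is a description of the letters in these windows and does not show that a factor binds.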

How the data were processed

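ATAC-seq was performed by the authors on 6 libraries of EndoC-βH3 cells, 3 per group, grouped here by their titles. Per the methods of the study and the submitters' processing notes, the authors trimmed reads with Trim Galore and cutadapt, used Bowtie2 for alignment to hg38, filtered out mitochondrial and duplicate reads, corrected read ends for the transposase offset, determined peaks with MACS2 and scored reads in the merged peaks of the libraries. These steps are the usual ones for ATAC-seq. Versions are not given in the sources used here. The mean signal in the authors' deposited table is the mean over all libraries of counts normalised by DESeq2. Only this column and the region names were used. The other 5 columns hold the authors' comparison of the groups (log2 fold change, its standard error, test statistic, p-value and adjusted p-value), and they were not used, so no test was run. The depth of a library cannot be read from this column. The methods of the study state a range of filtered reads per library, which was not used here.

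Region starts were taken as 0-based and are printed 1-based, and 0 regions lay past a chromosome end of hg38. Start sites and exons were taken from GENCODE 44. Signal per kb is the mean signal divided by the width. Shares above a percentage of regions count regions with strictly lower values. All 10 genes are named, each with its promoter regions and the distal region of highest mean signal, together with the 5 distal regions of highest level per kb and the 3 highest and 3 lowest other imprinted genes. The genes, lists and motifs were chosen with earlier results of these data known. Python 3.11.15, numpy 2.4.6 and pandas 2.3.3 were used, and the assignment of regions was tested on simulated data. Alternatives were promoter windows of 1 and 0.5 kb, a distal limit of 50 kb, a mean signal of at least 50, start sites of all gene types, other gene values, other windows for sequence features and removal of shared regions.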

Additional observations from a re-analysis of the deposited data

How the results depend on the processing

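Of 18 alternatives to the 7 summary values, 15 left the value within a ratio of 1.5. With start sites of all gene types in place of coding ones, 15 distal regions were assigned to the genes instead of 36. That count does not separate regions nearer to a noncoding gene from regions that fell within 2 kb of an added start site. With a mean signal of at least 50, the median level of the distal regions was 399.7 per kb instead of 236, as weak regions are then left out. The ZFP57 hexamer was present in 10 promoter regions when the whole region was searched, instead of 3. The median level of the promoter regions without the repetitive PEG10 region, an alternative chosen after seeing the data, was 639 per kb against 645.

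No paired analysis was possible because only a mean over all libraries was at hand, although the labels number the libraries of both groups alike. For the same reason, leaving out each replicate and another normalisation were not run. Precision at weak regions, such as the DLK1 promoter region with a mean signal of 27.2, could not be assessed.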
